A study of Sus scrofa with 14 samples.

Results

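Cytokines, chemokines and their receptors were examined in endometrium (uterine lining) from pseudopregnant gilts (young female pigs that have not farrowed). Members were taken by name: every gene with a single symbol in the array's probe annotation that begins with IL and a digit, CCL, CXCL, CCR and a digit, CXCR, TNF, IFN, CSF or TGFB, except CCL28 and CXCL9. This gave 82 of the 6765 genes with a single symbol on the array, 17 of them with more than 1 probe set. Each was read from its probe set with the highest mean. By role they comprised 17 chemokine ligands, 7 chemokine receptors, 18 interleukins, 13 interleukin receptors or binding proteins, 4 interferons, 3 interferon receptors, 2 colony-stimulating factors, 4 ligands and 5 receptors of the TNF family, 4 TNF-induced proteins, 3 TGF beta ligands and 2 TGF beta receptors.

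The animals were 14 crossbred cyclic gilts aged 8 to 10 months, all pseudopregnant, with 1 Affymetrix porcine expression array for each. Gilts received estrogen or corn oil when their second estrus began and a further dose 24 hours afterwards; the estrogen compound, its dose and the way pseudopregnancy was brought about are not given in the sources used here. Tissue was collected 13 or 15 days into pseudopregnancy, after the uterus had been flushed with 20 mL of saline. The 4 groups were control day 13 (n = 4), control day 15 (n = 3), estrogen day 13 (n = 4) and estrogen day 15 (n = 3), and the labels number the gilts of a group as biological replicates. The submitters' design text gives days 13 to 15 as the time of attachment in porcine pregnancy and describes early estrogen as an endocrine disruption, so the comparisons ask how these genes differed between treatments on each day and between days in each treatment.

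Chemokines are small secreted proteins that attract leukocytes through receptors coupled to G proteins. Interleukins, interferons and TNF family members signal between leukocytes and also to epithelium and stroma, and TGF beta ligands act on growth, matrix and immune tolerance. In the pig, conceptuses secrete estrogen and later interferons as they elongate and attach, and the endometrium answers with immune genes. Pseudopregnant gilts carry no conceptus, so these values describe the endometrium without one. They do not describe it without estrogen. The estrogen groups were dosed with it, and the way pseudopregnancy was brought about is not given.

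All levels below are log2(signal + 16), where the signal is the array's scaled brightness, and a difference on this scale understates the change of a dim gene. Members are compared with themselves across gilts, since levels of different probe sets cannot be ranked against one another. Of the 14 arrays, 3 stood apart from the rest: control day 13 gilt 1, control day 15 gilt 3 and estrogen day 15 gilt 2, with median correlations to the other arrays of 0.860 to 0.885 against 0.927 to 0.952 for the other 11. Results that rest on them are given with and without them. The 3′ minus 5′ difference of the GAPDH control probe sets, a sign of RNA degradation, was 1.86 to 2.20 in estrogen day 13 gilts and 2.55, 1.36 and 2.84 in estrogen day 15 gilts 1, 2 and 3. A score over the GAPDH, actin and EF1A control probe sets, higher where the 3′ end exceeds the 5′ end by more, was 1.88 and 1.44 in gilts 1 and 3 of estrogen day 15 and at most 0.49 on every other array. Once the 3 arrays, gilt 2 among them, are left out, the days after estrogen and this sign of RNA quality therefore separate the same gilts and cannot be told apart. Epithelial markers were bright, with 8 of 8 on the array above the level needed for a test, as were 6 of 6 stromal fibroblast markers. Both trophoblast markers on the array were below it.

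Of the 82 members, 49 had a mean high enough for a test, which required a mean above 6.35, the level that removed the dimmest 30% of probe sets. Of all 6765 genes with a single symbol on the array, 5785 were testable, a larger share than of the members. By side of the signal, 26 of 48 ligands and 20 of 30 receptors or binding proteins were testable. The testable chemokine ligands were 12 of 17, but only 2 of 7 chemokine receptors passed, CXCR4 (the receptor of CXCL12) and CCR9 (the receptor of CCL25). Among interleukins 6 of 18 passed: IL1A, IL1B, IL15, IL17B, IL18 and IL34. IFNA1 was the only interferon of 4 above the limit, and it belongs to a family of near-identical genes that a probe set may not separate. All 3 interferon receptor chains passed, and neither CSF2 nor CSF3 did. The 33 dim members had means of 4.24 to 6.33. Of these, 16 were at or under the limit on every array, and 1, IL16, was above it on at least 7 of the 14. The testable member nearest the limit was CCL19 at 6.53, and the dim member nearest it was CCL3L1 at 6.33.

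The 49 testable members varied more between gilts than the typical gene: the median SD over the 14 arrays was 0.58, against 0.35 over all 16754 tested probe sets. In single gilts, 18 to 31 of the 49 members lay above their own mean on day 13 and 27 to 30 on day 15 in the control groups. CXCL14 had the widest spread, with an SD of 1.74 and levels from 6.93 to 13.26. CCL8, CXCL2, TNFAIP1, CCL4, CCL2 and CCL19 followed it. The steadiest member was IL17B, with an SD of 0.14. The remaining named members with high means (IL11RA, CXCL16, TNFRSF1A, IFNAR1, TNFRSF1B, TNFRSF21, IFNGR1, TGFBR1 and TNFAIP8) included receptors that most cells carry, such as the interferon receptor chains and TNFRSF1A.

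**Figure D1:**
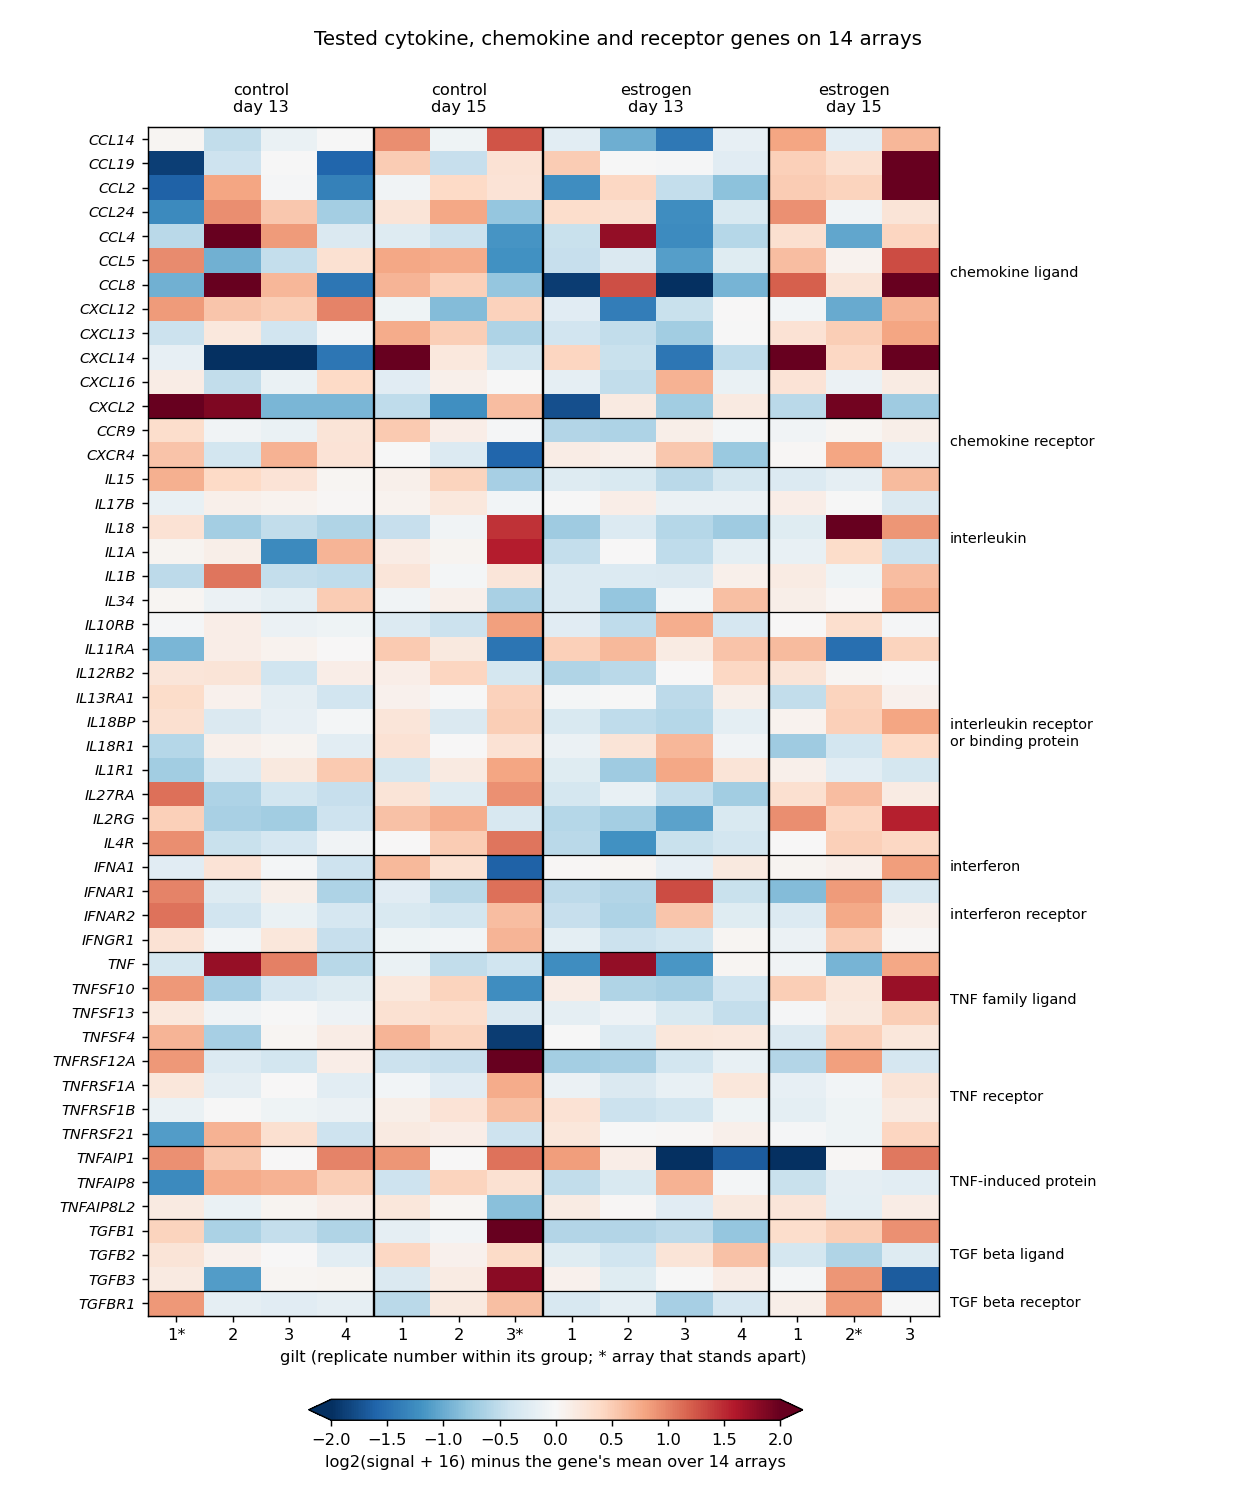
Level of each of the 49 tested members on each array, as log2(signal + 16) minus that gene's mean over the 14 arrays (colour, limited to 2 in either direction). Columns are gilts in their 4 groups, rows are genes by role, and asterisks mark the 3 arrays that stand apart. Chemokine ligands hold the strongest colours, and 27 to 37 of the 49 members were above their own mean in estrogen day 15 gilts against 12 to 17 in estrogen day 13 gilts.

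The clearest pattern lay between the days, in gilts given estrogen. CXCL14, a chemokine made by epithelial and stromal cells, was higher on average on day 15 than on day 13 in both treatments, and so was IL2RG, the signalling chain shared by the receptors of IL2, IL4, IL7, IL9, IL15 and IL21. With all 14 arrays neither passed the test. Without the 3 arrays that stand apart, both rose in estrogen gilts, together with TGFB1 and TNFSF10, in a comparison whose 2 remaining day 15 gilts are the 2 with the highest scores for the 3′ minus 5′ gap of the control probe sets. In bulk tissue, a higher level from more cells of a type and one from more RNA in each cell cannot be told apart.

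CXCL14 read 9.47, 7.63, 6.93 and 8.20 in the control day 13 gilts and 12.04, 9.85 and 9.26 on day 15. After estrogen it read 10.07, 9.19, 8.19 and 9.13 on day 13 and 13.26, 10.04 and 11.63 on day 15. In each treatment the groups overlapped through the arrays that stand apart; 9.47 was control day 13 gilt 1, 9.26 was control day 15 gilt 3 and 10.04 was estrogen day 15 gilt 2. The difference between days was 2.33 ± 0.80 (SE) in control gilts, 5.02-fold, with an adjusted p of 0.966, and 2.50 ± 0.80 in estrogen gilts, 5.66-fold, with an adjusted p of 0.408 (limma). Once those arrays were left out the groups no longer overlapped, and the differences were 3.36 ± 0.68 (adjusted p = 0.212) in control gilts and 3.30 ± 0.65 (adjusted p = 0.0337) in estrogen gilts. With a score of RNA quality in the model the difference in estrogen gilts was 1.35 ± 0.75 (adjusted p = 0.377); leaving out gilt 1 of control day 15, which read 12.04, made the difference in control gilts 1.55 times smaller. A second CXCL14 probe set differed by 2.07 in control and 1.77 in estrogen gilts.

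IL2RG read 6.52, 6.42, 6.03 and 6.80 in estrogen gilts on day 13 and 8.02, 7.52 and 8.65 on day 15, so every day 15 gilt was above every day 13 gilt. In control gilts it read 7.57, 6.44, 6.40 and 6.68 on day 13 and 7.68, 7.82 and 6.78 on day 15, and the groups overlapped. The difference was 1.62 ± 0.36 in estrogen gilts, 3.08-fold (adjusted p = 0.206), and 0.66 ± 0.36 in control gilts (adjusted p = 0.966). It was 1.90 ± 0.26 without the 3 arrays in estrogen gilts (adjusted p = 0.0091) and 1.24 ± 0.28 in control gilts (adjusted p = 0.305), and the control groups then did not overlap either. The test of whether the day difference itself differed between treatments gave 0.97 ± 0.51 and missed the threshold (adjusted p = 0.990), so a difference between treatments was not shown. With RNA quality in the model, IL2RG differed by 1.29 ± 0.39 in estrogen gilts (adjusted p = 0.198).

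TGFB1, a ligand that restrains immune cells and drives matrix formation, was nearly constant in estrogen day 13 gilts, at 7.49, 7.49, 7.55 and 7.31, and read 8.43, 8.57 and 8.99 on day 15. The difference of 1.20 ± 0.46 (adjusted p = 0.473) became 1.25 ± 0.19 without the 3 arrays (adjusted p = 0.0127). Its control values were 8.53, 7.45, 7.60 and 7.48 on day 13 and 7.90, 8.02 and 10.25 on day 15, where the highest of each group was an array that stands apart. The control difference was 0.96 ± 0.46 with all arrays and 0.45 ± 0.20 without the 3. With RNA quality in the model the difference after estrogen was 1.52 ± 0.52 (adjusted p = 0.221). A second TGFB1 probe set differed by 0.67 between days after estrogen, but its groups overlapped. It read 6.49, 6.36, 6.31 and 5.22 on day 13 and 6.11, 6.83 and 7.37 on day 15.

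TNFSF10, the death ligand TRAIL, read 8.72, 7.97, 7.92 and 8.18 on day 13 after estrogen and 9.06, 8.79 and 10.29 on day 15. These groups did not overlap, and the difference was 1.18 ± 0.46 (adjusted p = 0.500), or 1.48 ± 0.32 without the 3 arrays (adjusted p = 0.0470). It was 0.74 ± 0.51 with RNA quality in the model and 0.73 ± 0.48 without gilt 3 of day 15, which read 10.29. CCL5, which attracts T cells and monocytes, read 7.98, 8.15, 7.34 and 8.21 against 9.06, 8.52 and 9.75, again with no overlap. Averaged over both treatments CCL5 was 0.67 ± 0.37 higher on day 15 with all arrays (adjusted p = 0.616) and 1.31 ± 0.25 higher without the 3 arrays (adjusted p = 0.0280).

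**Figure D2:**
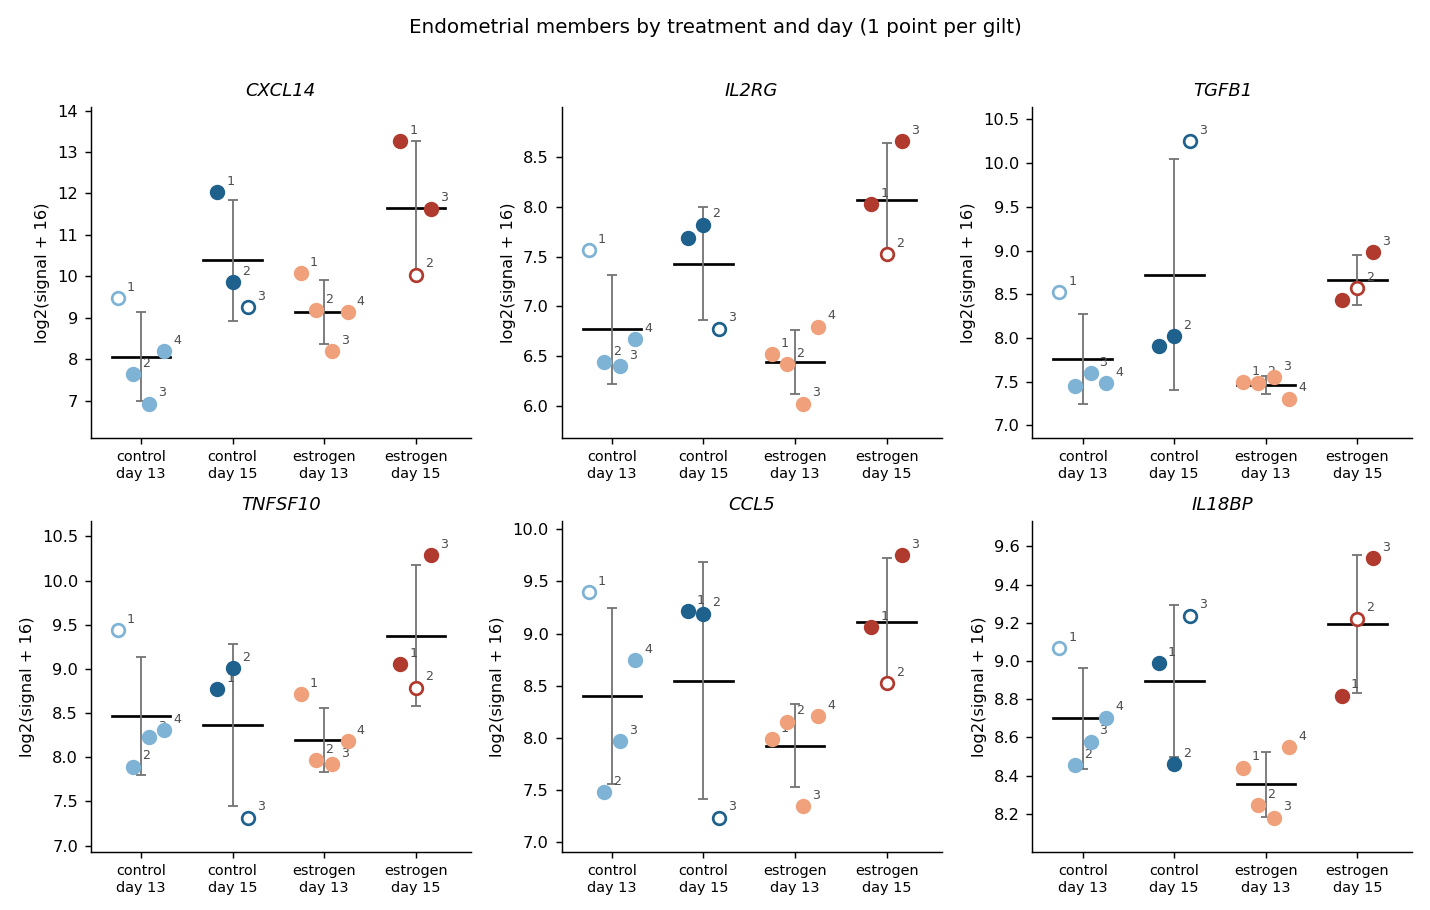
Level of 6 members by group, as log2(signal + 16) on the y axis, with 1 point per gilt labelled by its replicate number. Open points are the 3 arrays that stand apart, the horizontal line is the group mean and the error bar is 1 SD. After estrogen, IL2RG, TGFB1, TNFSF10, CCL5 and IL18BP show no overlap between days, while CXCL14 overlaps through gilt 2 of day 15 at 10.04.

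Across the members, no gene was past an adjusted p of 0.05 between days in estrogen gilts with all 14 arrays, as was true of all tested probe sets (0%). At an unadjusted p under 0.05, 14 of 49 were higher on day 15 and 0 were lower, against 4.77% higher and 3.84% lower of all tested probe sets. The median difference was 0.37 over the members and 0.02 over all probe sets, and 41 of 49 were higher. In 12 of the 49 every day 15 gilt exceeded every day 13 gilt, and in 0 was the reverse seen; the shares of all tested probe sets were 7.96% and 6.5%. Leaving out the 3 arrays, 4 members rose (IL2RG, TGFB1, CXCL14 and TNFSF10) where 1.32% of all tested probe sets were past the threshold.

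By role, the chemokine ligands stood highest: 12 of 12 were higher on day 15 after estrogen, with a median difference of 0.98, and 6 had an unadjusted p under 0.05. These 6 were CXCL14, CCL8, CCL2, CCL5, CCL14 and CXCL13. Without the 3 arrays 11 of 12 were higher, with a median of 1.18, and with RNA quality in the model 11 of 12 with a median of 0.74. CCL2, which draws monocytes, read 6.39, 8.05, 7.16 and 6.82 on day 13 and 8.15, 8.08 and 10.43 on day 15, a difference of 1.78 ± 0.63 (adjusted p = 0.457), or 1.01 ± 0.59 without the gilt that read 10.43. CXCL13, which attracts B cells, differed by 0.92 ± 0.31 (adjusted p = 0.433) and CCL14 by 1.11 ± 0.38 (adjusted p = 0.437). CCL8 differed by 2.24 ± 0.94 but its groups overlapped, from 5.44 to 9.52 on day 13 and from 8.48 to 10.25 on day 15. CCL8 and CCL2 lie in 1 cluster in the Sscrofa11.1 assembly, as do CCL14 and CCL5, each with 1 other coding gene between them.

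Among interleukins and their receptors after estrogen, IL18, an inflammatory cytokine, and IL18BP, the secreted protein that neutralises it, were both higher in every day 15 gilt than in any day 13 gilt. IL18BP read 8.44, 8.25, 8.18 and 8.55 against 8.82, 9.22 and 9.54, a difference of 0.84 ± 0.23 (adjusted p = 0.301). IL18 read 6.47, 6.91, 6.61 and 6.47 against 6.94, 9.42 and 8.06, a difference of 1.53 ± 0.52 (adjusted p = 0.437) that was 0.89 ± 0.30 without the 3 arrays and 2.46 ± 0.38 with RNA quality in the model. IL18R1, a chain of the IL18 receptor, differed the other way, by -0.41 ± 0.29. IL4R, a chain of the receptors of IL4 and IL13, was 0.94 ± 0.34 higher (limma adjusted p = 0.459). A second, dim IL4R probe set differed by 0.22. Over the receptors and binding proteins of all families, 16 of 20 were higher on day 15 with a median of 0.25.

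Counts were smaller in control gilts, whose comparison holds more of the arrays that stand apart than the comparison in estrogen gilts. No member passed the adjusted threshold, and 0% of all tested probe sets did. At an unadjusted p under 0.05, 3 members were higher on day 15 (CXCL14, CCL14 and TNFRSF1B) and 1 was lower (CXCR4), against 1.86% higher and 2.05% lower of all tested probe sets. The median was 0.11 over the members and -0.02 over all probe sets, with 34 of 49 higher. The members' median was 0.21 without gilt 1 of control day 13 and 0.22 without gilt 2 of control day 15. TNFRSF1B, a TNF receptor of leukocytes and endothelium, read 10.00, 10.13, 10.05 and 10.02 on day 13 and 10.25, 10.41 and 10.74 on day 15, and was the only one of the 49 testable members without overlap in that direction (1.74% of all tested probe sets); its difference was 0.42 ± 0.19, or 0.27 ± 0.21 without the 3 arrays. CXCL12 was the only testable member without overlap in the other (1.78%). CXCR4 read 9.25, 8.32, 9.38 and 8.95 against 8.67, 8.40 and 7.10; its difference was -0.92 ± 0.40 with all arrays and -0.35 ± 0.36 without the 3 arrays, the value of 7.10 being gilt 3 of control day 15.

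**Figure D3:**
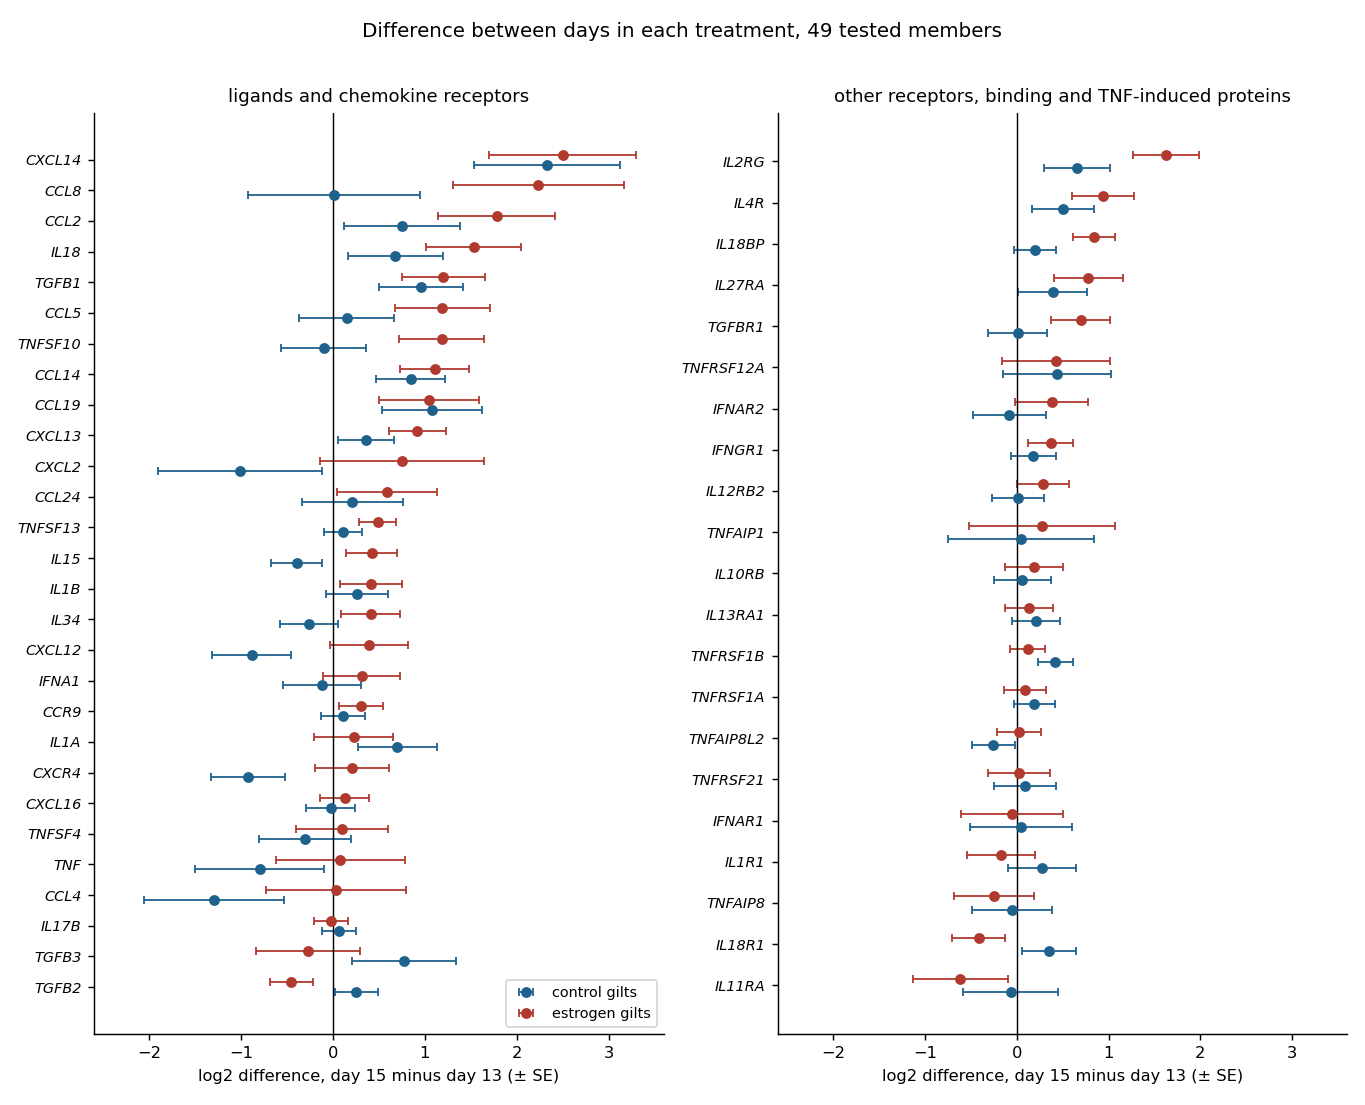
Difference between day 15 and day 13 on the log2 scale for each of the 49 tested members in control (blue) and estrogen (red) gilts, with bars of 1 SE from the fit of all 14 arrays. All 12 chemokine ligands lie to the right of 0 in estrogen gilts and 8 of 12 do in control gilts; CXCL14 lies farthest right in both, at 2.33 and 2.50.

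Averaged over both treatments, 11 members were higher on day 15 at an unadjusted p under 0.05 and 0 were lower, against 4.65% and 3.91% of all tested probe sets. IL2RG differed by 1.14 ± 0.25 (adjusted p = 0.189), CXCL14 by 2.42 ± 0.56 (adjusted p = 0.233) and TGFB1 by 1.08 ± 0.32 (adjusted p = 0.350). No member passed with all arrays, where 1 probe set did (0.00597%). Without the 3 arrays 5 members rose, IL2RG, CXCL14, TGFB1, CCL5 and TNFSF10, against 0.985% of all tested probe sets. Leaving out only gilt 1 of control day 13 gave 2 members past the threshold, IL2RG at 1.27 (adjusted p = 0.0280) and CXCL14 at 2.65 (adjusted p = 0.0493), where 0.603% of all tested probe sets passed. With the replicate block, which treats gilts with the same number as paired, no member passed and 0 probe sets did. Since no member passed without the block, this does not show that a call holds under pairing.

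No member had a day difference that differed between treatments past the threshold, and 0% of all tested probe sets had one. At an unadjusted p under 0.05 the count was 0 of 49, against 3.55%. The members' median was 0.27, in the direction of a larger day 15 minus day 13 difference after estrogen, with 0.04 over all probe sets. The lowest p among them belonged to TGFB2, at -0.71 ± 0.33, followed by CXCL12 at 1.28 ± 0.60 and IL15 at 0.82 ± 0.39 (adjusted p = 0.990 for each, limma). Without the 3 arrays the last 2 were 1.99 and 0.50.

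Markers of macrophages and dendritic cells summed to more on day 15 than on day 13 in estrogen gilts, while the sums overlapped in control gilts. Of 10 listed, 8 were on the array and 7 were testable, with MARCO dim. Their summed signal was 890 to 1750 in control day 13 gilts, 903 to 1198 in estrogen day 13 gilts, 1702 to 2953 in control day 15 gilts and 2269 to 3936 in estrogen day 15 gilts. The median difference between days over the 7 was 1.79 in estrogen and 0.85 in control gilts. Lymphocyte markers (9 of 13 on the array, 5 testable, with CD3G, CD2, CD4 and CD79B dim) summed to 435 to 669 on day 13 and 823 to 1561 on day 15 after estrogen, and to 406 to 1043 and 427 to 1140 in control gilts. Neutrophil markers (3 of 5 on the array, 1 testable) summed to 77 to 1739 on day 13 and 184 to 677 on day 15 after estrogen. Gilts 1 and 3 of estrogen day 15, with the highest 3′ minus 5′ scores, had macrophage sums of 3061 and 3936. The part of these cells in the levels of CCL2, CCL5, IL2RG and the other members was not tested.

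Estrogen against control gave smaller counts than the day. On day 13, 0 members and 0% of all tested probe sets passed the adjusted threshold, and 2 members were below an unadjusted p of 0.05, against 2.89%. Both were lower after estrogen. CXCL12, the stromal chemokine that signals through CXCR4, read 7.45, 7.16, 7.10 and 7.59 in control gilts and 6.39, 5.23, 6.16 and 6.62 in estrogen gilts. The groups did not overlap, and the difference was -1.23 ± 0.39, 2.34-fold lower (limma adjusted p = 0.9999). Of the estrogen values, 5.23 and 6.16 lie below the limit for testing. A second, dim CXCL12 probe set differed by -0.80, with overlapping groups. On day 15 CXCL12 read 6.52, 5.74 and 7.07 in control and 6.56, 5.61 and 7.31 in estrogen gilts, a difference of 0.05 ± 0.46, or 0.80 ± 0.47 without the 3 arrays.

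IL15, which sustains natural killer cells, read 8.81, 8.49, 8.37 and 8.14 in control day 13 gilts and 7.84, 7.80, 7.56 and 7.74 after estrogen, again without overlap. Its difference was -0.72 ± 0.26, 1.64-fold lower (adjusted p = 0.9999). On day 15 the IL15 difference was 0.10 ± 0.30. CXCL12 and IL15 were the 2 members of 49 entirely lower after estrogen on day 13 (0.985% of all tested probe sets), and IL11RA, the receptor of IL11, was the 1 entirely higher (1.74%). IL11RA read 9.87, 10.91, 10.85 and 10.79 in control and 11.26, 11.44, 10.95 and 11.36 in estrogen gilts, a difference of 0.64 ± 0.48, or 0.40 ± 0.15 without the 3 arrays. IL4R differed by -0.66 ± 0.31 (limma adjusted p = 0.9999), or -0.36 ± 0.27 without gilt 1 of control day 13, which read 9.67. The second, dim IL4R probe set differed by -0.03. The median over the members was -0.20 on day 13, with 10 of 49 higher; over all probe sets it was -0.02, with 46.75% higher. The count was 17 of 49 and the median -0.13 without the 3 arrays.

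On day 15, 0 members and 0% of all tested probe sets passed, and 1 member was below an unadjusted p of 0.05, against 3.83%. That was TGFB2, a TGF beta ligand, which read 8.47, 8.14 and 8.44 in control and 7.71, 7.46 and 7.81 in estrogen gilts, without overlap. The difference was -0.69 ± 0.25, 1.61-fold lower (limma adjusted p = 0.985). The other testable TGFB2 probe set differed by -1.15, but its groups overlapped. It read 6.29, 6.56 and 7.93 in control and 5.78, 6.87 and 4.68 in estrogen gilts. Of 2 dim TGFB2 probe sets, 1 differed by -0.30 and 1 the other way, by 0.37. TGFB2 was the 1 testable member entirely lower after estrogen (3.18% of all tested probe sets). CCL2 was the 1 testable member entirely higher (4.12%), at 8.15, 8.08 and 10.43 against 7.56, 8.03 and 7.92 in control gilts, a difference of 1.05 ± 0.68 that was 0.28 ± 0.62 without the gilt that read 10.43. Chemokine ligands were higher after estrogen in 11 of 12 cases on day 15, with a median of 0.55, and in 3 of 12 on day 13, with a median of -0.36. With RNA quality in the model, 8 of 12 were higher on day 15 with a median of 0.05. Over all members the day 15 median was 0.10, against 0.03 over all probe sets.

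Averaged over the days, 0 members and 0% of all tested probe sets passed for estrogen, and 2 members had an unadjusted p under 0.05, against 3.22%. CCL19, which guides T cells and dendritic cells through CCR7, was 1.01 ± 0.39 higher (adjusted p = 1.0). It read 4.65, 6.12, 6.53 and 4.95 in control and 7.04, 6.52, 6.50 and 6.31 in estrogen gilts on day 13, and 7.04, 6.07 and 6.82 against 6.85 to 9.06 on day 15. Groups overlapped on both days, the difference was 0.66 ± 0.32 without the gilt that read 9.06, and several of these values lie near or below the limit for testing. TNFAIP1 differed by -1.25 ± 0.56 (adjusted p = 1.0), or -0.74 ± 0.48 without gilt 1 of estrogen day 15. Its 7 control values lay between 8.43 and 9.51, whereas after estrogen it read 9.26, 8.56, 6.11 and 6.76 on day 13 and 5.93, 8.45 and 9.47 on day 15. Thus 3 of the 7 estrogen gilts were far below every control gilt and the other 4 lay within the control range. CXCL14 was 1.17 ± 0.56 higher after estrogen (adjusted p = 1.0), or 0.77 ± 0.54 without gilt 1 of estrogen day 15.

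**Figure D4:**
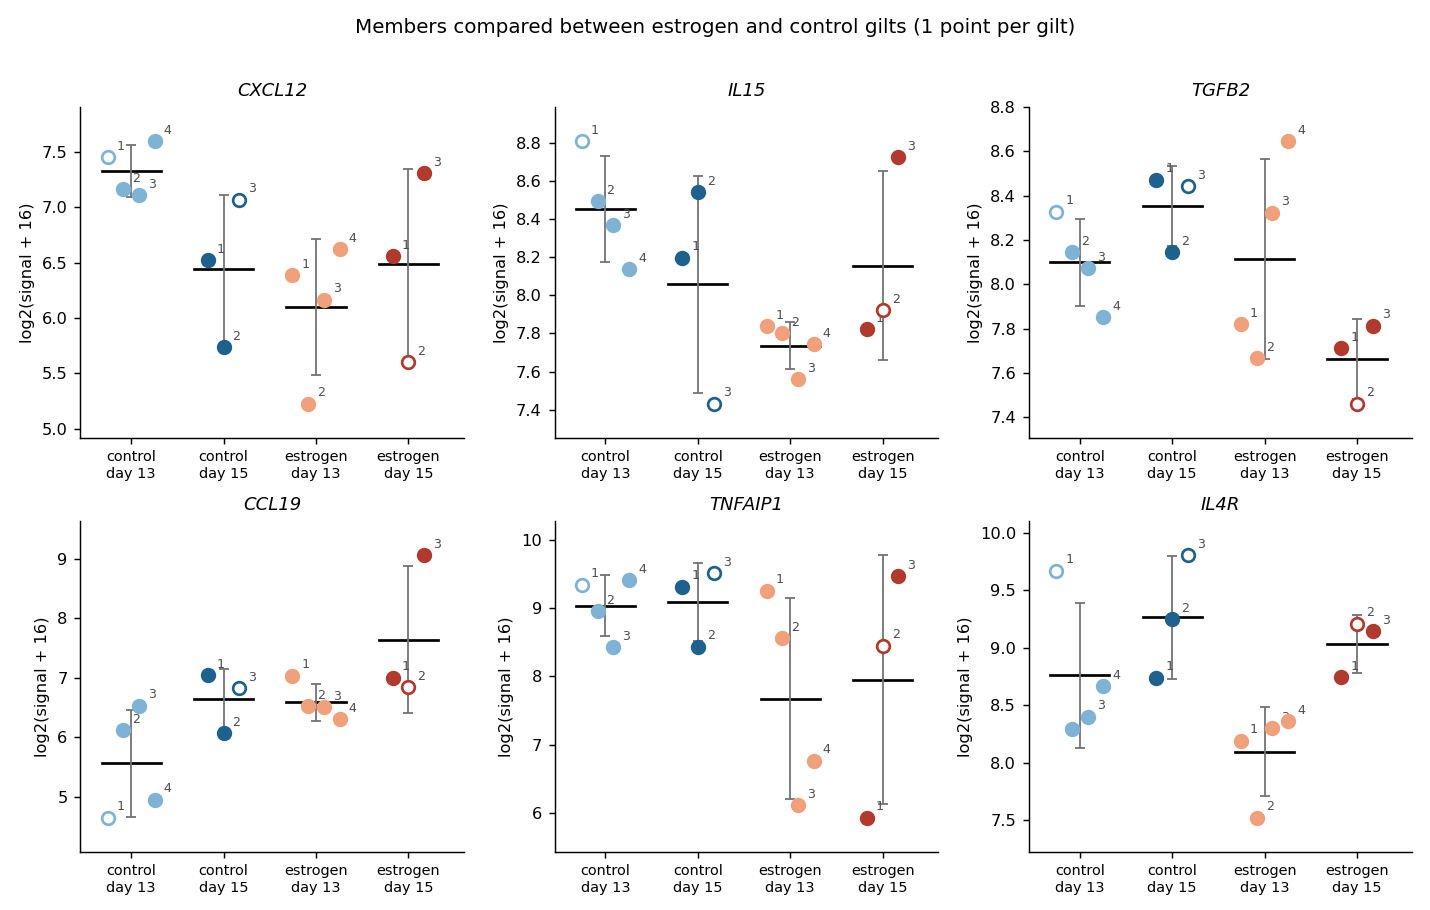
Level of 6 members by group, as log2(signal + 16) on the y axis, with 1 point per gilt labelled by its replicate number; open points are the 3 arrays that stand apart, lines are group means and error bars are 1 SD. CXCL12 and IL15 do not overlap between treatments on day 13, TGFB2 does not on day 15, and TNFAIP1 is split within the estrogen gilts, from 5.93 to 9.47.

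Some members followed single gilts and not the groups. These members were picked once their levels had been looked at. The day 13 gilts that share a number, such as gilt 2 of control and gilt 2 of estrogen, may be pairs, so they may not be independent of each other. CCL4, a chemokine of activated macrophages and lymphocytes, was highest in gilt 2 of control day 13, at 10.68, and in gilt 2 of estrogen day 13, at 9.80, and lay between 6.78 and 8.89 in the other 12. TNF was highest in the same 2 gilts, at 8.58 and 8.60, with 5.59 to 7.85 elsewhere. CCL3L1, the gene next to CCL4 in the Sscrofa11.1 assembly and a dim member by its mean, read 9.22 and 8.64 in them and at most 7.69 in others. CCL8 was 10.42 and 9.52 there, but 10.25 in gilt 3 of estrogen day 15. The summed macrophage markers in these 2 gilts were 992 and 971, within the range of the other day 13 gilts.

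A second set of neighbours, also picked once their levels had been looked at, moved by gilt. IFNAR2, IL10RB and IFNAR1, receptor chains for type I interferons and the IL10 family, lie next to each other in the Sscrofa11.1 assembly. IFNAR1 read 11.24, 11.35 and 11.10 on the 3 arrays that stand apart and 11.56 in gilt 3 of estrogen day 13, and 9.39 to 10.37 in the other 10. IFNAR2 read 10.34, 9.86 and 10.01 on those 3 arrays and 9.81 in gilt 3 of estrogen day 13, with no other gilt above 9.35. IL10RB was 10.05 in gilt 3 of estrogen day 13 and 10.14 and 9.65 in gilt 3 of control day 15 and gilt 2 of estrogen day 15, but 9.30 in gilt 1 of control day 13, within the range of the others.

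**Figure D5:**
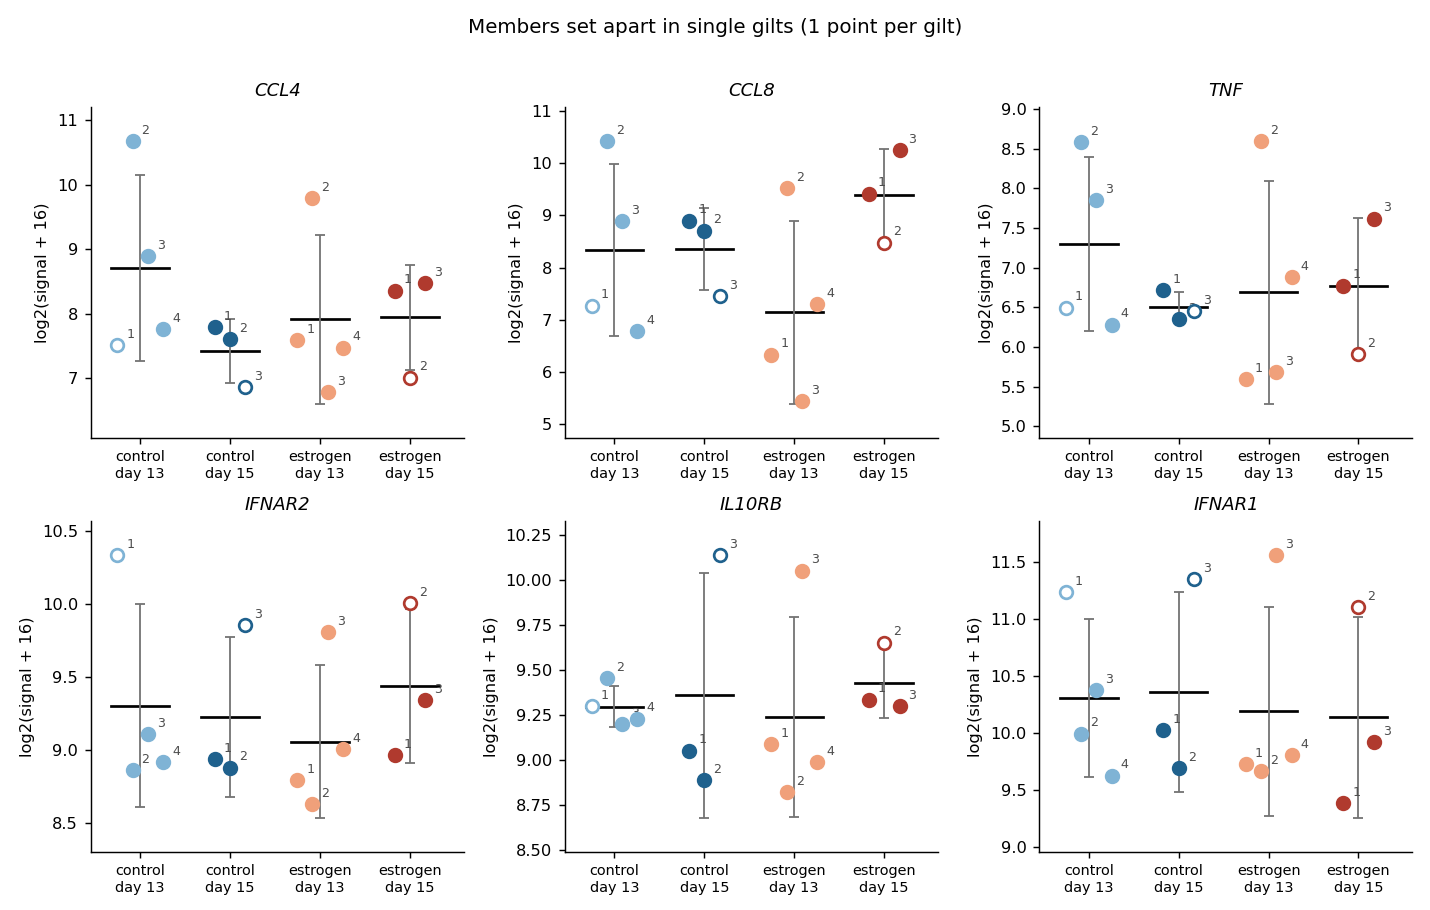
Level of CCL4, CCL8, TNF, IFNAR2, IL10RB and IFNAR1 by group, as log2(signal + 16) on the y axis, with 1 point per gilt labelled by its replicate number; open points are the 3 arrays that stand apart, lines are group means and error bars are 1 SD. Gilt 2 of both day 13 groups leads CCL4 and TNF, and gilt 3 of estrogen day 13 lies with the open points in IFNAR1 and IFNAR2.

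The 3 arrays that stand apart were above all 11 others in 7 testable members: IFNAR2, IFNGR1, IL13RA1, IL27RA, TGFB3, TGFBR1 and TNFRSF12A. They were below all others in 1, IL11RA, at 9.87, 9.32 and 9.27 against 10.79 to 11.44. TNFRSF12A, the receptor of the cytokine TWEAK, read 9.87, 11.48 and 9.82 on them and at most 9.14 elsewhere. TGFB3 split narrowly, with 6.78 the lowest value on the 3 arrays and 6.77 the highest elsewhere. These arrays were named for their correlation over all probe sets, so the values are a description. The share of all tested probe sets that split in this way was not counted, so the counts are not a result about the members.

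The dim members gave few values worth setting out, and the genes given here with values were picked once their levels had been looked at. IL16, a chemoattractant for CD4 cells, read 5.19, 4.90, 4.80 and 5.49 on day 13 and 6.37, 6.78 and 7.56 on day 15 in estrogen gilts, with no overlap, and 7.17, 5.23, 6.32 and 6.64 against 7.37, 7.47 and 5.98 in control gilts. In a fit without the limit on dim probe sets its difference after estrogen was 1.81 ± 0.47 (adjusted p = 0.286). CXCL8, which attracts neutrophils, read 7.72, 6.95 and 8.83 on the 3 arrays that stand apart and 6.85 and 7.33 in gilt 2 of both day 13 groups, but at most 5.79 in the other 9. CXCL2, a testable chemokine that attracts neutrophils too, read 11.54, 9.64 and 10.96 on those 3 arrays and 10.90 and 9.21 in those 2 gilts, with 7.28 to 9.22 in the rest. IFNG, the interferon of T and natural killer cells, read 7.33 and 6.20 in those 2 gilts and at most 5.89 elsewhere. The means of IL2, IL6, IL10 and IL17A also lay below the limit.

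Other genes of cytokine signalling were followed through a list of 76, of which 44 were on the array and 37 were testable. With all arrays 0 of 37 passed in any comparison. Between days after estrogen, 10 were higher and 1 was lower at an unadjusted p under 0.05 (4.77% and 3.84% of all tested probe sets), and the median over the 37 was 0.14. The 4 lowest p-values belonged to CD74, the invariant chain and receptor of the cytokine MIF, at 1.56 ± 0.36, CASP1, the protease that matures IL1B and IL18, at 1.53 ± 0.36, CD40, a TNF family receptor of antigen-presenting cells, at 1.40 ± 0.35, and IRF7, a transcription factor of interferon genes, at 1.47 ± 0.41. Without the 3 arrays 5 of 37 rose after estrogen, CD74, CASP1, IRF7, LTB and JAK3, and 0 fell, where 1.32% of all tested probe sets passed in either direction. JAK3, the kinase bound to the IL2RG chain, then differed by 1.40 ± 0.20 (adjusted p = 0.0114). LTB, lymphotoxin beta, differed by 1.59 ± 0.25 (adjusted p = 0.0131). The same 5 rose averaged over treatments, and KIT, the receptor of stem cell factor, had the lowest p in control gilts, at -0.66 ± 0.27 (adjusted p = 0.966). For estrogen against control, 0 of 37 on day 13 and 2 on day 15, LTB at 1.44 ± 0.60 and IRF7 at 1.03 ± 0.44, had an unadjusted p under 0.05, against 2.89% and 3.83% of all tested probe sets. LTB was 0.51 ± 0.28 without the 3 arrays, and IRF7 was 0.55 ± 0.48 with RNA quality in the model.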

How the data were processed

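Total RNA from 1 endometrial sample per gilt was labelled with biotin and hybridised to Affymetrix porcine arrays, per the labels' protocols. The deposited values are a linear intensity for each probe set, scaled by the authors so that the trimmed mean agrees between arrays; summary software and scaling target are not given in the sources used here. Control probe sets (188 of 24123) and the dimmest 30% of the rest were left out, leaving 16754. Values were taken as log2(signal + 16), and 1 model of the 4 groups was fitted with limma 3.58.1 in R 4.3.3 (lmFit, eBayes with trend), with Benjamini-Hochberg adjustment over all tested probe sets and a threshold of 0.05. The script was tested on simulated data. Probe sets were named from the platform annotation, in which 13826 had no symbol and 198 several; all 82 members matched the reference gene table.

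Members, lists, the 3 arrays and the alternatives were chosen with earlier results of these data known. Names were drawn from CXCL14 and IL2RG, the 10 members with the highest means, and in each of the 7 comparisons the 8 lowest p-values and every member past the threshold, with all arrays or without the 3; of the pathway list, the 4 lowest p-values and every gene past it. Members named beyond these, such as IL16, CXCL8, CXCL2, IFNG, IFNAR2 and IL10RB, were chosen after their values were seen. Replicate numbers are the labels'. Deviations of same-numbered gilts correlated at 0.13 to 0.28 in all 4 pairs of control and estrogen day 13, against -0.26 to 0.10 in the 12 other pairings, so those numbers may be pairs; the other comparisons showed no such relation. All printed differences are unpaired, and the replicate block, an alternative, joined equal numbers over all 4 groups. The number of arrays limits the precision.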

Additional observations from a re-analysis of the deposited data

Results flagged for a closer look

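Among the 28 named members, 56 groups of 4 gilts were examined for a gilt far from the rest, and 5 had one; chance marks about 1 group in 20. IFNAR1 read 11.56 in gilt 3 of estrogen day 13, where the other 3 gilts lay between 9.67 and 9.81. The other 4 all concern gilt 1 of control day 13, an array that stands apart. In it IL11RA read 9.87 (10.79 to 10.91 in the others), TGFB1 8.53 (7.45 to 7.60), TGFBR1 10.42 (9.34 to 9.38) and TNFAIP8 8.19 (9.96 to 10.20).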

How the results depend on the processing

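Over 26 alternatives (pseudocounts of 1 and 64, no filter or 50% left out, quantile normalization, no trend, array weights, RNA quality as a covariate, the replicate block, only the groups compared, all probe sets of a gene averaged, the 3 arrays left out together and each of the 14 arrays left out), 1586 of 1612 values of named members kept direction and side of the threshold, 15 passed it and 11 turned direction. No member was past the threshold with all arrays, so keeping its side says little. Medians stayed within the spread between gilts, an SD of 0.13, but that SD is larger than several of the medians. For estrogen against control on day 15 the members' median was 0.10 with all arrays and 0.01 without gilt 3 of estrogen day 15. For estrogen against control, CXCL14 on day 15 was -0.0549 with RNA quality, and IL2RG averaged over days ranged from -0.0067 to 0.29 with 1 array left out. For the difference of the day effect, CXCL14 was -0.0595 without the 3 arrays, -0.17 with array weights, -1.48 with RNA quality, -0.0627 with probe sets averaged and -0.64 to 1.00 with 1 array left out. Between days in estrogen gilts, probe sets called were 3 with no filter, 99 with only the groups compared, 221 without the 3 arrays, 168 with array weights and 0 to 44 with 1 array left out, and members called were 1, 4 and 1 with only the groups compared, without the 3 arrays and with array weights. Averaged over treatments, probe sets were 165 without the 3 arrays, 119 with array weights, 0 with the replicate block, 9 with RNA quality and 0 to 101 with 1 array left out, and members 5, 2 and 0 to 2 without the 3 arrays, with array weights and with 1 array left out. The 44, the 101 and the 2 came without gilt 1 of control day 13. With 1 array left out, probe sets called were 0 to 4 for averaged estrogen and 0 to 1 for days in control gilts, highest in both without gilt 1 of control day 15. With the replicate block no member was called, and with all arrays unpaired there was no call to lose. The causes were not tested. Without the 3 arrays, control and estrogen day 15 hold 2 gilts each, so calls there rest on few animals.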
